A study of Mus musculus with 6 samples.

Results

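The wide accessible sites of primary mouse embryonic fibroblasts (MEFs), those that span 1000 bp or more, are described here. They were taken from the sites that ATAC-Seq defined on chromosomes 1 to 19, by their width alone. Of 225604 autosomal sites 4962 were wide, or 2.20%, and the other 220642 sites are called narrower. The whole table held 229903 sites. ATAC-Seq measures accessibility through a transposase that cuts open DNA and leaves sequencing adaptors behind. It was applied to 3 HAT1+/+ (HAT1 WT) and 3 HAT1-/- (HAT1 KO) primary MEF lines, each grown from an embryo on the C57bl6 background, with no treatment named for either genotype. Each site has a level in each genotype, the log2 of the authors' mean of normalized reads over the lines of that genotype, and no values of single lines were used. There is therefore no spread between lines, no n behind a site's level beyond the 3 lines, and no test between genotypes. Every difference below is the HAT1-/- level minus the HAT1+/+ level on the log2 scale, so that a value of -1 stands for 0.5 times the HAT1+/+ reads. In bulk samples, a partial loss in every cell and a full loss in some of the cells cannot be told apart.

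HAT1 is the histone acetyltransferase that acetylates the tail of newly made histone H4 before it is assembled into chromatin behind the replication fork. An accessible site is a stretch from which nucleosomes are displaced, at promoters by the transcription machinery and elsewhere by transcription factors at enhancers. Sites this wide span several nucleosomes, and they are known chiefly from promoters within CpG islands, which are stretches rich in G, C and the CG dinucleotide that stay free of DNA methylation in most cells.

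Stretches of 8 wide sites are printed to show what these sites look like in sequence, and each is the central 200 bases of its site, on the plus strand of GRCm38 (mm10), in lower case with every CG dinucleotide in capitals. The first is from the widest site that contains a transcription start site (TSS), the promoter of Kansl1l. The second is from a site of 1855 bp that lies over 3 kb from any TSS, within the gene AC165153.1. The next 3 are from the sites with the most negative differences, and the last 3 from those with the most positive ones. None of the 8 stretches touches an annotated exon.
Kansl1l promoter site, chr1:66816929-66817128: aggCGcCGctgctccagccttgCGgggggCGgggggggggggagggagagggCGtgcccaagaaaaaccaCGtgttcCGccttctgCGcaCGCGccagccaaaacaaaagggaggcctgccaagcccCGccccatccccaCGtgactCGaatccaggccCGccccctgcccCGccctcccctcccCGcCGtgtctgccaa
chromosome 17 site, chr17:88256540-88256739: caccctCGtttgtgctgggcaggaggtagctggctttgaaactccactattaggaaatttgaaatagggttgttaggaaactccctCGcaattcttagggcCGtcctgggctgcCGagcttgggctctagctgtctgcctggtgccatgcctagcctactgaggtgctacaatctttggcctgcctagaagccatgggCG
chromosome 1 site, chr1:124488321-124488520: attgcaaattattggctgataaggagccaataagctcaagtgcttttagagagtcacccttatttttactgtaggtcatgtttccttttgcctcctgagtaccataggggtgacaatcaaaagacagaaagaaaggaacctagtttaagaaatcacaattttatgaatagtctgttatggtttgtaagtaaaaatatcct
chromosome 4 site, chr4:50403686-50403885: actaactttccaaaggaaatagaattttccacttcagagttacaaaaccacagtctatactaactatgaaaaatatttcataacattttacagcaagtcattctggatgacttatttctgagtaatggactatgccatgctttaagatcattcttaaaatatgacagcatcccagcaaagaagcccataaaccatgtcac
Kcnip4 intronic site, chr5:49337166-49337365: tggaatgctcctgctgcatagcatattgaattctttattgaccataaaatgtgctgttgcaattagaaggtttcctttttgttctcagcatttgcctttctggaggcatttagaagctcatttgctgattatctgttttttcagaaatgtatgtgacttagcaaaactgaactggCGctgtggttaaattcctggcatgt
Gm45883 intronic site, chr11:90225124-90225323: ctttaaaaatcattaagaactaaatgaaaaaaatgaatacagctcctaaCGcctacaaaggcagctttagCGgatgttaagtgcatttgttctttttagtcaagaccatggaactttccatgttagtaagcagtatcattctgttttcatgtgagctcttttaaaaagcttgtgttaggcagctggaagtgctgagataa
Bbs9 intronic site, chr9:22814775-22814974: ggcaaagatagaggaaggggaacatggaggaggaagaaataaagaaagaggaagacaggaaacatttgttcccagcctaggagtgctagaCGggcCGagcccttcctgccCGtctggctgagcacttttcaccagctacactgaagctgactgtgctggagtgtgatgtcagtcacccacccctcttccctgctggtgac
Auts2 intronic site, chr5:132074835-132075034: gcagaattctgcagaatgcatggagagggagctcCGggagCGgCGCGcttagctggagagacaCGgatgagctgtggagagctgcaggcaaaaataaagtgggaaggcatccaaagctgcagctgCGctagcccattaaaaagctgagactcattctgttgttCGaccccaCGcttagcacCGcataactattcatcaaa
The Kansl1l stretch holds 17 CG dinucleotides at a G and C content of 72.0%. The stretches of the sites with the most negative differences hold 0, 0 and 1, at a G and C content of 33.5% to 38.0%, and those of the sites with the most positive differences hold 2, 3 and 9.

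Wide sites were mostly promoters. A TSS of GENCODE vM21 lay inside 3616 of them (72.9%), against 6.84% of the narrower sites. A further 284 (5.72%) had a TSS within 3 kb. Of the remaining 1062, 532 were inside a gene and 530 between genes. A longer site holds a TSS more often by its length alone, and the share rose with width, from 1.65% of sites under 200 bp to 27.6% of those of 500 to 999 bp, 71.2% of those of 1000 to 1499 bp and 97.6% of the 42 sites of 2000 bp or more. The median wide site was 1157 bp long and the widest 2368 bp. Wide sites had a median G and C content of 61.6%, against 50.0% in narrower sites. The ratio of observed to expected CG dinucleotides was 0.71 against 0.19. With a G and C content of at least 50% and a ratio of at least 0.6, limits set after the files were seen, 64.8% of wide sites were CpG-rich, against 6.25% of narrower sites. The wide sites that contain a TSS were CpG-rich in 3076 of 3616 cases (85.1%). Of the 1062 wide sites over 3 kb from a TSS 57 were (5.37%), so wide sites at promoters and away from them differed in base composition. Narrower sites differed in the same direction, with 53.2% CpG-rich among those with a TSS and 1.17% over 3 kb away. Over 3 kb from a TSS the median G and C content was 49.1% in wide and in narrower sites.

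**Figure D1:**
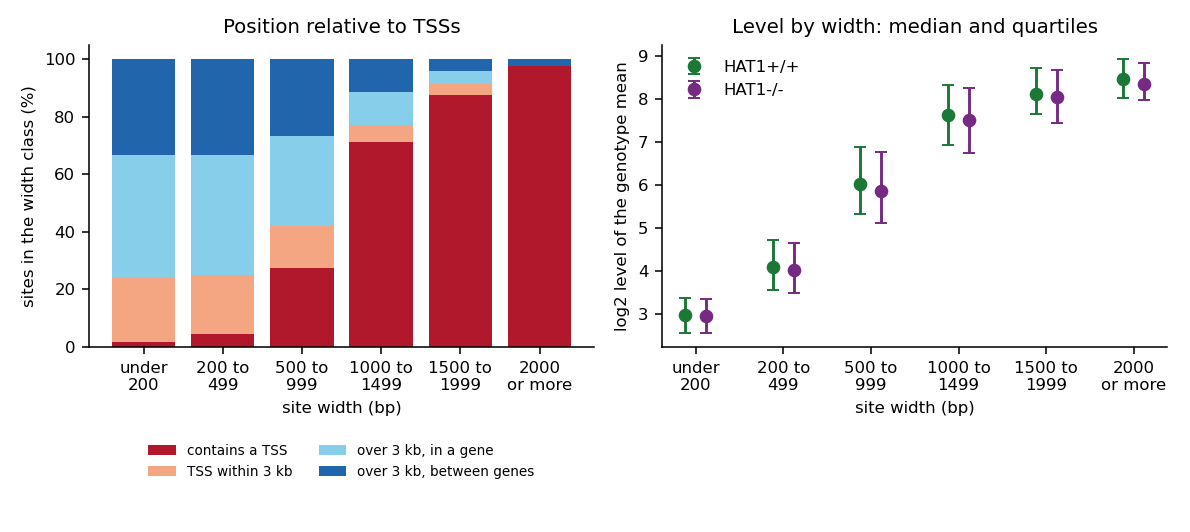
Left, share in percent of the autosomal sites of each width class (bp) that contain a TSS, have a TSS within 3 kb, or lie farther away inside or between genes. Right, log2 level by width class in HAT1+/+ and HAT1-/- cells, with points at the median and bars over the quartiles of the sites. The share with a TSS rises from 1.65% to 97.6%, and the HAT1+/+ median from 2.98 to 8.46.

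Short motifs were counted on both strands of the central 200 bases of each site. The SP and KLF box GGGCGG was present in 57.0% of the wide sites with a TSS, 39.9% of the narrower sites with a TSS, 7.16% of the wide sites over 3 kb from a TSS and 8.61% of all autosomal sites. Narrower sites over 3 kb from a TSS held GGGCGG in 4.27% of cases. The AP-1 motif TGANTCA, which binds the Fos and Jun family, was rarer in sites with a TSS than in those away from one. It was found in 2.41% of the wide sites with a TSS and 17.0% of those over 3 kb away, against 22.9% of all sites. In narrower sites the shares were 7.61% with a TSS and 25.9% over 3 kb away. Among narrower sites over 3 kb away with a mean level of 6 or more, 37.0% held it, above the share of wide distal sites. The median width over 3 kb from a TSS was 1100 bp in wide and 244 bp in all narrower sites. The 200 bases are thus a smaller part of a wide site, and the rest of it was not searched. The TEAD motif CATTCC was in 6.17% of wide sites with a TSS and 16.4% of those over 3 kb away, and in 15.5% of all sites. The NF-Y box CCAAT was in 15.1% and 21.4%, and in 21.7% of all sites. None of the motifs contains another, and a match is a description of the sequence only.

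Wide sites were among the most accessible of the genome. Their median level was 7.70 in HAT1+/+ cells (208 normalized reads per line) and 7.58 in HAT1-/- cells (191 reads). For narrower sites the medians were 3.83 (14.2 reads) and 3.75 (13.5 reads). Part of this follows from counting over a longer stretch. Per kb of site, the mean level of all lines was 7.36 in wide and 5.83 in narrower sites at the median. Of the 100 sites with the highest level 66 were wide, as were 491 of the top 1000. Wide sites covered 8.18% of the bases of all autosomal sites and held 16.6% of the normalized reads in those sites, in both genotypes. The reads of HAT1-/- cells, summed over wide sites, came to 94.5% of those of HAT1+/+ cells, and over narrower sites to 94.7%. In sum, therefore, the ratio between genotypes was nearly the same in both classes. Its size rests on the library normalization, which is not given in the sources used here, so it is not read as a loss of reads.

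The 10 widest sites all contained a TSS. The Kansl1l promoter had a level of 8.81 in HAT1+/+ and 8.82 in HAT1-/- cells. That of Jun, which encodes an AP-1 subunit, had 10.17 and 10.22. At Egr1, an immediate early zinc finger factor, the levels were 10.09 and 10.05, and at Srsf2, a splicing factor, 8.95 and 9.13. Tiparp, which encodes a mono-ADP-ribosyltransferase, had a difference of 0.14, and Sfmbt1, which encodes a chromatin repressor with MBT repeats, had levels of 7.32 and 7.37. The promoters of Pcbp1, an RNA-binding protein (8.45 and 8.35), of Sema4c, a semaphorin (8.85 and 8.70), and of the zinc finger gene Zfp236 (8.34 and 8.05) were lower in HAT1-/- cells by 0.10, 0.15 and 0.29. AC141471.3 had the most negative difference of the 10, -0.43. The highest levels belonged to the promoters of Sp4 (10.81 in HAT1+/+ and 10.94 in HAT1-/- cells), Ppp2r3d (10.88 and 10.87), Zbtb20 (10.72 and 10.82), Gm7461 (10.76 and 10.74) and Gsk3b (10.51 and 10.54). All of these 5 differed by 0.13 or less.

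Loss of HAT1 went with a small shift of the wide sites. Their median difference was -0.09 (quartiles -0.24 and 0.01), against -0.06 (quartiles -0.38 and 0.25) for narrower sites. Wide sites spread less, with an interquartile range of 0.25 against 0.63. Below 0 were 71.5% of wide and 54.8% of narrower sites. The median of all autosomal sites was itself -0.06, and after the differences were centred on it these shares became 57.2% and 49.4%. The wide median was below the narrower median on 19 of 19 chromosomes. Across the width limit the values were close, with a median difference of -0.10 in the 207 sites of 1000 to 1009 bp and -0.09 in the 232 sites of 990 to 999 bp.

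Large changes among wide sites were in 1 direction only. A level lower by 1 or more in HAT1-/- cells was found at 61 wide sites, or 1.23%, whereas 5.12% of all autosomal sites were that much lower. A level higher by 1 or more was found at 0 wide sites, against 2.78% of all autosomal sites, and the most positive wide site reached 0.71. Few gains were also found at sites of 500 to 999 bp, of which 0.128% were higher and 3.82% lower by 1 or more. Since wide sites have higher levels, the shares past a fixed size were also compared at like level.

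**Figure D2:**
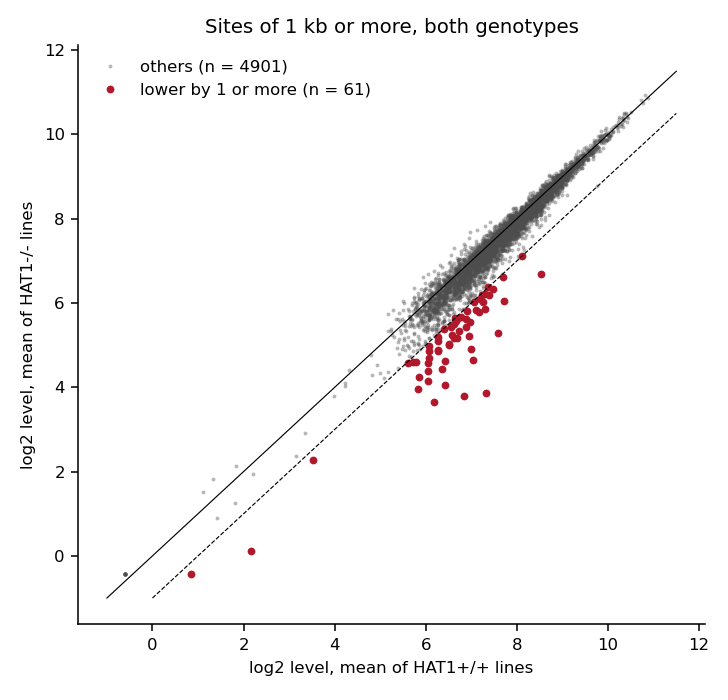
Log2 level of the authors' mean over HAT1-/- lines against that over HAT1+/+ lines for the 4962 wide sites, 1 point per site, with a solid line at equal levels and a dashed line at a difference of -1. The 61 sites at or below -1 are in red, most of them at HAT1+/+ levels of 6 to 8, and no site lies 1 or more above the solid line.

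Wide and narrower sites were therefore compared within bins of 0.25 of the mean level of all lines, with at least 20 sites of each class in a bin, and the bins were averaged with the numbers of wide sites as weights. This set 4833 wide against 36628 narrower sites. The matched median difference was -0.12 for wide and -0.06 for narrower sites, a gap of -0.06. Both had nearly the same interquartile range, 0.249 and 0.252. At matched level 72.2% of wide and 60.7% of narrower sites were below 0, and 1.16% and 0.427% were lower by 1 or more. Higher by 1 or more at matched level were 0 wide and 0.0166% of narrower sites. The order of the lower shares was the reverse of that without matching. The gap depended on level. At levels of 5 to 6 the median difference was -0.35 for wide and -0.09 for narrower sites. At 7 to 8 it was -0.12 and -0.07, and at 9 to 10 it was -0.01 and 0.00. Reads were counted over the whole width and width is part of how a peak was called, so level and width are not separate measures. How peaks of the lines were merged into sites is not given in the sources used here. The width of a site may therefore depend on peaks of a single genotype, and a gap from such a choice of sites and a gap from the loss of HAT1 cannot be told apart.

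**Figure D3:**
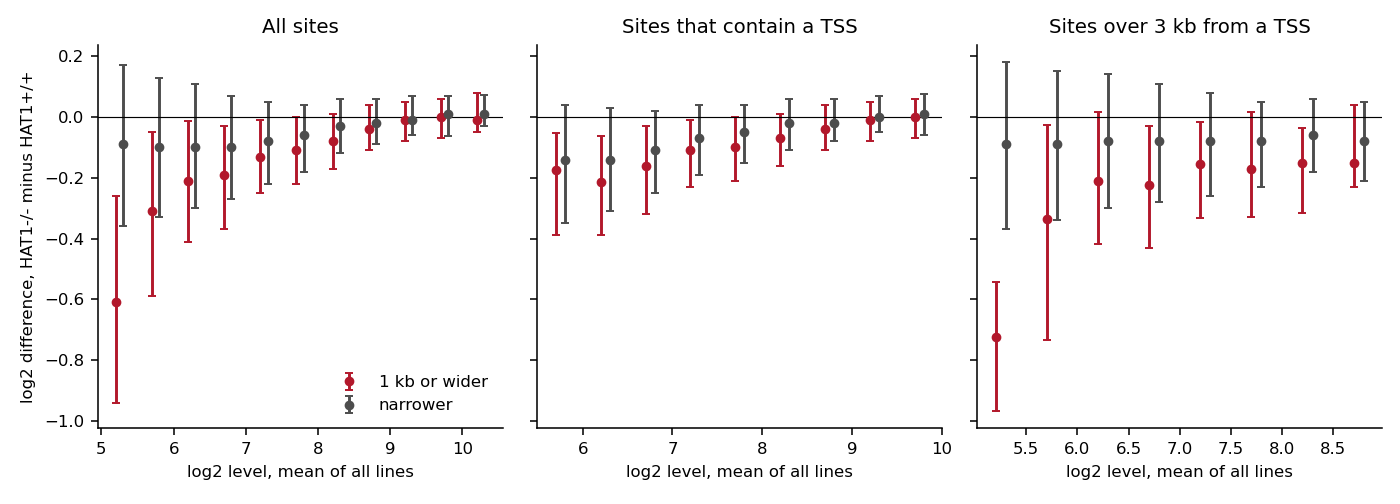
Median log2 difference, HAT1-/- minus HAT1+/+, with bars over the quartiles, by mean log2 level of all lines in steps of 0.5, for wide sites (red) and narrower sites (grey). Panels show all sites, sites that contain a TSS and sites over 3 kb from a TSS, and the wide medians fall farthest below the grey ones at low level and over 3 kb from a TSS.

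The gap was larger away from TSSs, a contrast given without a test. For sites that contain a TSS the matched medians were -0.09 for wide and -0.05 for narrower sites, a gap of -0.04. Over 3 kb from a TSS they were -0.23 and -0.08, a gap of -0.15, with 4.13% of wide and 1.31% of narrower sites lower by 1 or more. Inside genes the gap was -0.11 and between genes -0.14. CpG-rich wide sites had a gap of -0.04 and the others -0.12. These averages cover unlike levels. The median level of wide sites was 7.915 with a TSS and 6.75 over 3 kb away, and 7.97 when CpG-rich and 6.99 otherwise. At levels of 5 to 6 the wide and narrower medians were -0.18 and -0.14 with a TSS, and -0.41 and -0.09 over 3 kb away. At levels of 7 to 8 they were -0.11 and -0.06 with a TSS, and -0.16 and -0.08 over 3 kb away. Unmatched, the median difference of wide sites was -0.08 with a TSS inside, -0.16 with a TSS within 3 kb and -0.20 farther away, where narrower sites had -0.05. As no line values were used, the spread over chromosomes is given in place of an error, with bins of 0.5 and at least 5 sites of each class in a bin. The gap was below 0 on 19 of 19 chromosomes for all sites (-0.11 on chromosome 3 to -0.01 on chromosome 17; SD 0.02 over chromosomes). For sites with a TSS it was also below 0 on 19 of 19. Over 3 kb from a TSS it was below 0 on 18 of 19, from -0.28 on chromosome 3 to 0.01 on chromosome 15 (SD 0.07). Chromosomes of the same lines are not replicates, and these counts describe the libraries at hand.

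**Figure D4:**
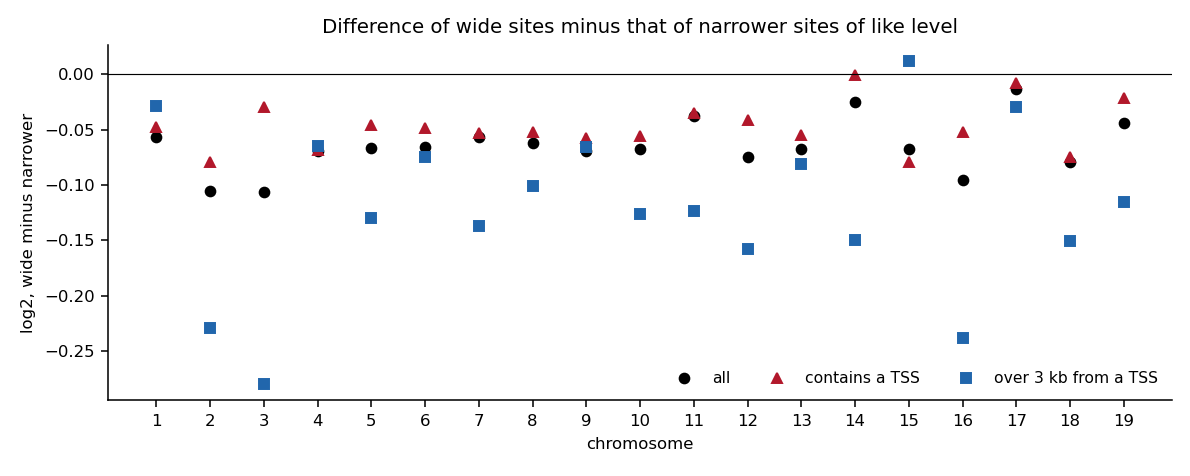
For each autosome (horizontal axis), the median log2 difference of wide sites minus that of narrower sites of like level, for all sites (circles), sites with a TSS (triangles) and sites over 3 kb from a TSS (squares). Circles and triangles are below 0 on 19 of 19 chromosomes, and the square of chromosome 15 stands at 0.01.

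The 61 wide sites lower by 1 or more lay on all 19 chromosomes, between 1 and 6 on each. Only 13 contained a TSS, 5 had a TSS within 3 kb and 43 were farther away. As a share this is 4.05% of all wide sites over 3 kb from a TSS and 0.36% of those with a TSS. Both shares were below those of narrower sites, 5.93% and 1.94%, whereas at matched level the wide shares were the higher ones, 4.13% against 1.31% and 0.257% against 0.131%. Over 3 kb from a TSS this order depended on level. The wide and narrower shares were 13.3% and 3.33% at levels of 5 to 6, and 4.53% and 1.80% at 6 to 7. At 7 to 8 they were 0.314% and 0.540%, the reverse order. Of the 61, 9 were CpG-rich. The median G and C content of the 61 was 47.7%, against 61.6% for all wide sites. In their central 200 bases, 9 of the 61 held TGANTCA (14.8%), against 22.9% of all autosomal sites. GGGCGG was in 11 of the 61 (18.03%), against 8.61% of all autosomal sites. Of the 43 distal ones 0 held GGGCGG, against 7.16% of all wide sites over 3 kb from a TSS. With so low a share and only 43 sites, this absence is not read as a trait of the lowered sites.

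The site with the most negative difference was on chromosome 1 from 124487795 to 124489048, 1808 bp from the TSS of Gm25578 and 442236 bp from that of the nearest protein-coding gene, Dpp10. Its level was 7.32 in HAT1+/+ cells (159.8 reads) and 3.86 in HAT1-/- cells (14.5 reads), a difference of -3.46. The next, on chromosome 4 from 50403188 to 50404385 and between genes, had 6.84 (115 reads) and 3.79 (13.8 reads). The third lay in an intron of Kcnip4, which encodes a protein that binds potassium channels, on chromosome 5 from 49336737 to 49337795, with 6.17 (72.0 reads) and 3.64 (12.5 reads). The stretches of these 3 sites printed above hold a single CG dinucleotide between them. On chromosome 6 a pair of wide sites, from 81487632 to 81488699 and from 81586142 to 81587185, had differences of -1.89 and -2.38. A site between genes on chromosome 1 from 125236877 to 125237966 had -2.37, and another on chromosome 6, from 148555611 to 148556633, -1.92. A site of 1553 bp on chromosome 8, inside Csmd1, which encodes a large membrane protein with CUB and Sushi domains, had 6.99 and 4.91. The intergenic site on chromosome 7 from 48137199 to 48138418 had 7.59 (192.7 reads) and 5.29 (39.1 reads), at a G and C content of 60.7%. Another of the 10 most negative, at the TSS of Gm27552 on chromosome 1, rests on 4.47 and 1.08 reads.

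Promoters were the smaller part of the lowered sites, and those named here beyond the widest and the most changed were chosen after their values were seen. Tusc1, a tumour suppressor candidate, had 8.54 (372 reads) in HAT1+/+ and 6.70 (104 reads) in HAT1-/- cells. Foxd1, a forkhead factor of stromal cells, had 7.17 and 5.78. The promoter sites of Slitrk5, a membrane protein of synapses (6.77 and 5.66), Adcy2, an adenylyl cyclase (6.90 and 5.80), Slc6a15, a neutral amino acid transporter (7.70 and 6.61), Htr1b, a serotonin receptor (8.12 and 7.11), Gprin3 (7.48 and 6.33), Tenm4, a teneurin (7.29 and 6.21), and Dok6, an adaptor protein (6.57 and 5.49), had differences of -1.15 to -1.01. The site 607 bp from the TSS of Gabrb1, a GABA receptor subunit, had 7.38 and 6.19. Nlrp5-ps had 5.84 and 3.97. The last 2 with a TSS, Srp54b and Gm13238, had HAT1+/+ levels of 0.85 and 3.53, so that they rest on 1.80 and 11.6 reads. Srp54b lies beside its copy Srp54c, and how reads shared by such copies were placed is not given in the sources used here.

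At the other end, 19 wide sites were higher by 0.5 or more, 2 of them with a TSS inside. Those were Gbp7 (6.05 and 6.68) and Mx2 (7.12 and 7.74), both of which encode GTPases induced by interferon. The 3 most positive were inside genes. The first, in Gm45883 and 23707 bp from the TSS of Mmd on chromosome 11, had 6.98 (126 reads) and 7.69 (206.5 reads). The second, in Bbs9, a subunit of the complex at the base of cilia, had 5.93 (61.0 reads) and 6.62 (98.4 reads). The third, in Auts2, had 6.62 (98.4 reads) and 7.30 (158 reads). Sites in Plxnc1, a semaphorin receptor (5.74 and 6.35), and Gpa33, a cell surface antigen (6.95 and 7.55), followed, and 3 sites between genes on chromosomes 16, 2 and 1 were higher by 0.60, 0.59 and 0.59.

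The level of a wide site was then set beside its surroundings, as the mean difference of the 24 nearest sites, 12 on each side, without the site itself. Neighbourhoods with a mean below -0.58 are called lowered. They held 32 wide sites, or 0.645%, and 2.27% of all autosomal sites, on 13 chromosomes. Of the 61 sites lower by 1 or more, 18 were in such a neighbourhood (29.5%), against 20.8% of the narrower sites lower by 1 or more. Of the same 61, 32 had neighbours with a mean above -0.3 and 10 had neighbours at or above 0. An example of a lowered site among such neighbours is the chromosome 7 site above, with a difference of -2.30 and a neighbour mean of -0.22.

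Within lowered neighbourhoods, wide sites at promoters and away from them differed in size of change. The 17 over 3 kb from a TSS were all below 0, 11 by 1 or more, with a median difference of -1.39. The 13 with a TSS had a median of -0.56, with 10 below 0 and 5 lower by 1 or more. Compared with the mean of their own neighbours, 10 of these 13 were less negative, against 4 of the 17. Of the 13, 10 were CpG-rich, and of the 17, 0. Promoters near or above 0 were those of Fam174a (8.76 and 9.02, with neighbours at -0.86), Fbxo33, an F-box protein (8.99 and 9.11, neighbours at -0.68), Prmt6, an arginine methyltransferase (8.54 and 8.64, neighbours at -0.59), and 4931408C20Rik (7.29 and 7.21, neighbours at -0.90). The promoter of Dsel, a dermatan sulfate epimerase, had a high level that was lower in HAT1-/- cells, 9.76 and 8.77. Those of Slc16a7, a monocarboxylate transporter, and Tox, an HMG-box factor, had differences of -0.54 and -0.56, and that of Bend5 had -0.32. Over all narrower sites in these neighbourhoods the medians were -0.79 for the 172 with a TSS and -0.97 for the 4460 over 3 kb from a TSS. Among those of level 6 or more they were -0.25 for the 39 with a TSS and -1.005 for the 100 over 3 kb away.

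**Figure D5:**
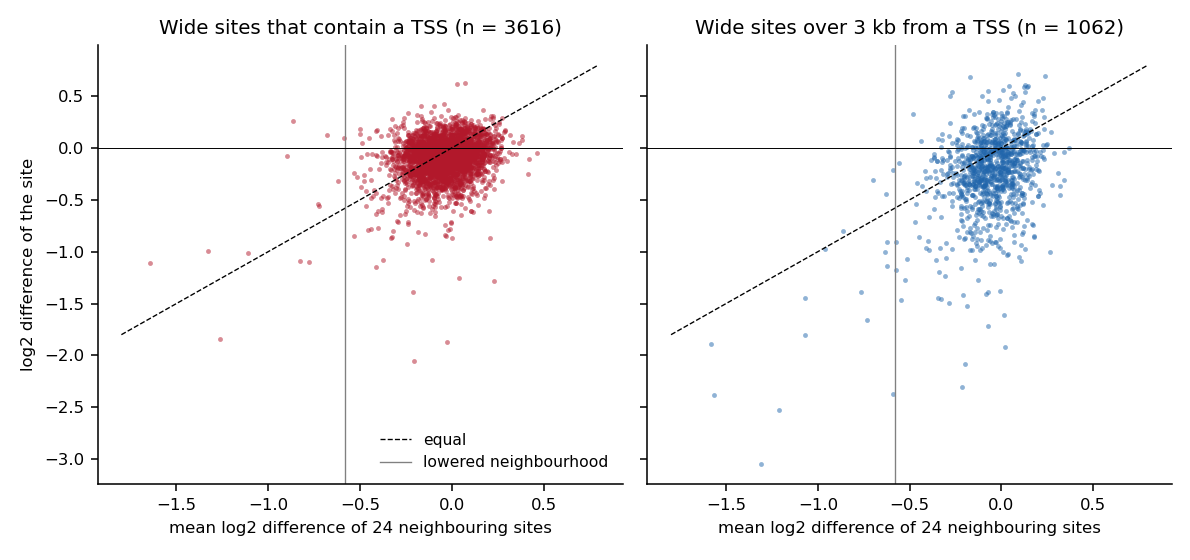
Log2 difference of each wide site against the mean log2 difference of its 24 neighbouring sites, for the 3616 wide sites with a TSS (left) and the 1062 over 3 kb from a TSS (right). The dashed line marks equal values and the grey line -0.58; left of it 10 of 13 promoter sites lie above the dashed line, against 4 of 17 distal sites.

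Differences were smaller away from lowered neighbourhoods. Where the neighbour mean was between -0.1 and 0.1, the median difference was -0.17 in the 531 wide sites over 3 kb from a TSS and -0.07 in the 2004 with a TSS. Over all levels, narrower sites there had the opposite order, -0.02 over 3 kb from a TSS and -0.07 with a TSS. That order did not hold among narrower sites of level 6 or more. Their medians were -0.06 for the 4340 over 3 kb from a TSS and -0.05 for the 4088 with a TSS. Across sites, the difference of a wide site and its neighbour mean had a Spearman rho of 0.17 for sites with a TSS (n = 3616) and 0.25 for those over 3 kb away (n = 1062). The sites of such a correlation share libraries and neighbours.

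Among the gene lists, chosen with earlier results known, wide sites within 3 kb of a coding TSS were found at 4060 of 20698 autosomal protein-coding genes (19.6%), with a median difference of -0.08. Such a site can also hold the TSS of a neighbouring gene. AP-1 and immediate early genes had them at 11 of 16, with differences of -0.15 to 0.06 and a median of -0.03. Beside Jun and Egr1, the highest mean levels were those of Atf3 (9.41 and 9.36), Fosl2 (9.36 and 9.32) and Junb (9.34 and 9.32). Housekeeping genes had them at 10 of 16, with differences of -0.12 to 0.12, such as Hspa8, a chaperone (9.92 and 9.98), the elongation factor Eef1a1 (9.36 and 9.30) and Actb (9.03 and 9.01). Cytosolic ribosomal protein genes had them at 6 of 28 (-0.18 to 0.03), among them Rps19 (9.70 and 9.60) and Rpl7 (9.33 and 9.23). In these 3 lists 0 sites were lower by 1 or more, as against 10 of the 3573 wide sites of all coding genes, so the lists do not stand apart by this count.

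Mesenchymal transcription factors had wide sites at 15 of 34 genes, 17 sites in all, with a median difference of -0.18 and the widest range, -1.39 to 0.20. The list also had the most sites. Their median HAT1+/+ level was 7.41, against 7.95 for the wide sites of all coding genes. Wide sites with a TSS had a median difference of -0.11 at mean levels of 7 to 8. Below 0 were 12 of the 17, and 1, Foxd1, was lower by more than 1. Klf6 (9.11 and 9.12), Tbx15 (8.08 and 8.28), Klf4 (8.08 and 8.18), Twist1 (8.19 and 8.03) and Foxc1, a forkhead factor of mesenchyme (8.20 and 7.61), had the highest mean levels. Foxp1, chosen after its values were seen, had 3 wide sites, with differences of 0.10, -0.43 and -0.41.

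Markers of fibroblasts and of other cell types were looked up. Of 22 genes of fibroblast identity and matrix 5 (22.7%) had a wide site, close to the 19.6% of all coding genes. They were Vim (9.29 and 9.34), Fn1 (8.42 and 8.40), Lox (8.22 and 8.12), Fbn1 (8.27 and 7.81) and Col6a2 (6.97 and 6.78). Of the markers of other cell types, 0 of 12 neuronal, 0 of 12 epithelial, 0 of 12 muscle and liver, 1 of 10 blood (Csf1r, 7.18 and 7.29) and 1 of 12 endothelial genes (Tek, 6.14 and 5.36) had one. A gene without a wide site can still have a narrower one, so these counts neither show where accessibility is absent nor check the label of the cells.

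Cell cycle and senescence genes had wide sites at 8 of 20 (-0.13 to 0.11), including Cdkn1a, a cyclin-dependent kinase inhibitor (8.82 and 8.69), and E2f1 (8.79 and 8.82). Genes of the nuclear lamina and inner nuclear membrane had them at 8 of 15 (-0.17 to 0.21), including Prr14, which tethers heterochromatin to the lamina (8.62 and 8.52 at its promoter, with a further site within 3 kb that holds the TSS of Fbrs), and Tor1aip1, a protein of the inner nuclear membrane that binds lamins (9.36 and 9.19). Genes of histone H3 and H4 assembly and H3K9 methylation had them at 8 of 20 (-0.21 to 0.03), including Cbx5, heterochromatin protein HP1 alpha (9.68 and 9.68), and Daxx, a histone H3.3 chaperone (9.17 and 9.02). Hat1 itself had no wide site. Its promoter site is 717 bp long and had 7.69 and 7.90. A site of 165 bp inside the gene, on chromosome 2 from 71421184 to 71421348, had 4.46 and 1.77, or 22.0 and 3.41 reads. Neither was used to check the deletion.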

How the data were processed

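The authors processed the reads with the ENCODE ATAC-Seq pipeline (Bowtie2 to mm10), called peaks with MACS2 and compared genotypes with DiffBind 2.14.0. The merging of peaks into sites and the library normalization are not given in the sources used here. In the deposited table, levels are log2 of normalized reads, as authors' means over the 3 lines of each genotype and over all 6 lines. The site width in bp is another deposited column. Further deposited columns hold the authors' fold change, p-value and FDR of the genotype comparison and were not used. Depth per line is unknown, and read numbers limit the precision of low levels.

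Differences are HAT1-/- minus HAT1+/+ levels. Chromosome lengths were checked against GRCm38, and TSSs and genes came from GENCODE vM21. A neighbour mean is taken over 24 sites. The matched comparison was tested on simulated data with known shifts. There the differences depended only on level, noise and the shift. Site widths set by peaks of a single genotype were not simulated. The text names the 10 widest, the 10 lowest, the 10 highest in difference, the 5 highest in level and, per gene list, 2 to 5 genes of highest mean level, and others only where it says so. The members and lists were chosen with earlier results of these data known. The labels name no batch. Computation was in Python 3.11.15 (numpy 2.4.6 and pandas 2.3.3), intervals came from scipy 1.17.1, and plots from matplotlib 3.10.9. Alternatives were other width limits, 1 added read, level limits, centring, other bins, matching per kb or with G and C content, other TSS rules and other neighbourhood rules.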

Additional observations from a re-analysis of the deposited data

How the results depend on the processing

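Of 56 alternative values for 7 results, 36 stayed within the limits set for them, 19 moved and 1 reversed. The limits were binomial intervals over sites for medians and the TSS share, 1 SD over chromosomes for gaps, and a fixed factor for counts. For the median of all wide sites they were -0.10 and -0.09. Sites and chromosomes of the same libraries are not replicates, so this tally does not measure variation between lines. The gap between wide and narrower sites at like level was below 0 under each alternative that gave a value, at -0.08 to -0.04 for all sites and -0.17 to -0.13 for sites over 3 kb from a TSS. No gap could be computed with 2000 bp as the limit, nor with 1500 bp for sites over 3 kb from a TSS, because too few wide sites were left in the bins. With wide sites taken from 750, 1500 and 2000 bp, the number lower by 1 or more was 321, 2 and 1, the number in lowered neighbourhoods 149, 2 and 1, and the share with a TSS within 3 kb 65.3%, 91.8% and 97.6%. The median difference was -0.05 from 2000 bp. Over 3 kb from a TSS it was -0.17 from 1500 bp (38 sites), and 0.14 from 2000 bp, where a single site was left. After centring on the median of all autosomal sites it was -0.03 for all wide sites and -0.14 over 3 kb from a TSS. With 1 read added it was -0.0898, with -0.09 as the value without. A TSS within 1 kb was found for 76.1%, and a protein-coding TSS within 3 kb for 72.0%. Lowered neighbourhoods held 50 wide sites when only levels of 4 or more were kept, 82 with a cutoff of -0.4 and 11 with a cutoff of -1. Leaving out the sites with the lowest levels, or those under a HAT1+/+ level of 4, chosen after seeing the data, moved none of the 3 results it was tried on past its limits. No paired analysis was possible because the columns hold genotype means, and for the same reason no line could be left out. An outlying line could not be seen in such means.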

Other observations

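Wide sites on the sex chromosomes, which were not among those described, numbered 125 on chromosome X and 1 on chromosome Y. On chromosome X 110 contained a TSS, their median difference was -0.04 against 0.03 in narrower sites of that chromosome, and 2 were lower by 1 or more.

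The median distance from an autosomal wide site to the next was 92.0 kb, with another within 10 kb for 250 (5.04%) and within 100 kb for 2602 (52.4%). Promoters of coding genes on both strands lay in 416 of the 3402 wide sites with a coding TSS (12.2%), against 5.39% of such narrower sites, and a longer site holds both more often by its length alone. The median difference was -0.05 in wide sites with coding TSSs on both strands and -0.08 in those with coding TSSs on a single strand.

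A group of 24 wide sites had mean levels under 4, although the median wide site had over 190 reads. Of these, 12 carried the lowest pair of values of the autosomes, -0.61 in HAT1+/+ and -0.43 in HAT1-/- cells, which 860 autosomal sites share to the last digit. As every such site has the same pair, its difference of 0.18 is not a measurement of that site. Of the 12, 10 were on chromosomes 12, 14 and 17, and 5 contained a TSS, among them Fam177a and Slc25a37. The other 12 included Srp54b, its copy Srp54c (3.34 and 2.91) and Gm21188 (2.21 and 1.95). Whether reads were lost there because they match several places was not tested.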
